A study of Mus musculus with 8 samples.

Results

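This comparison sets the Brd libraries against the NM-Brdi libraries of MC3T3-E1, an established line of mouse calvarial pre-osteoblasts that can be taken towards osteoblasts in culture. It rests on 4 of the 8 RNA-seq libraries of the study, Brd replicates 1 and 2 and NM-Brdi replicates 1 and 2, whose columns were found by their titles, and covers all genes of the count table. The study asks how BRD9, together with Wnt/β-catenin signalling, controls Sp7 as these cells turn into osteoblasts. Its design names I-BRD9, an inhibitor of BRD9, at 10 µM, DMSO as the vehicle, and an osteogenic medium that contains ascorbic acid at 0.25 mM, dexamethasone at 0.1 µM and glycerol phosphate at 10 mM. The labels give every group the same cell line, and say neither what the Brd cultures received, nor which libraries came from osteogenic medium, nor what the prefix NM stands for. The groups are therefore called by their titles, and a difference between inhibitor-treated cultures in unlike states is not given by the labels. Whether replicates of a group are separate cultures is not said, so that p-values reflect just the scatter of these libraries, possibly a technical one.

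BRD9 is a subunit of the ncBAF (GBAF) form of the SWI/SNF chromatin remodelling complexes, where its bromodomain binds acetylated lysines. Osteoblast differentiation is driven by Runx2 and, downstream of it, Sp7, and proceeds through matrix deposition to mineralization, with bone sialoprotein (Ibsp) and alkaline phosphatase (Alpl) among the classic products. The glucocorticoid receptor is a hormone-activated transcription factor, dexamethasone is a synthetic ligand of it, and its targets in many cell types include Tsc22d3, Fkbp5, Per1 and Sgk1.

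Total counts were 16918182 and 18069126 in Brd, against 24555028 and 23688093 in NM-Brdi. Levels are CPM, the field's usual scaling of counts to a common library total, corrected with TMM factors, and 1 CPM stood for 16.1 and 17.2 counts in Brd and for 25.8 and 24.7 counts in NM-Brdi. Levels are not per length, so they are compared between groups and not between genes. The libraries of a group were close to each other: on the log2(CPM + 1) scale, 5 genes were over 2-fold apart within Brd and 3 within NM-Brdi. Counts on processed pseudogenes, which are retrocopies of genes that share reads with their parents, made up 16% and 15.9% of a library in Brd, against 18.6% and 18.5% in NM-Brdi. Depth and pseudogene share thus moved with the groups and cannot be told apart from them. Markers of the line's lineage were present, with Runx2, Sp7, Col1a1 and Sparc in every library. Of the 9 epithelial markers 0 were tested, because their counts were too low, and the single tested endothelial marker (Egfl7) summed to 1.12 and 1.40 CPM in Brd, against 1.32 and 1.62 CPM in NM-Brdi. The 5 tested macrophage and osteoclast markers summed to 72.0 and 75.1 CPM in Brd, against 59.7 and 63.7 CPM in NM-Brdi, most of it Ctsk; Ptprc, the pan-leukocyte marker, was at 0 in both NM-Brdi libraries and too low to be tested, and the part of such cells in the results was not tested. In bulk RNA, a change in the number of cells of a type and a change in RNA per cell cannot be told apart.

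Of 28901 genes in the table, 16404 had enough counts to be tested, and 7215 of them (44%) were called at an adjusted p under 0.05 with edgeR's quasi-likelihood test and Benjamini-Hochberg adjustment over all tested genes. In Brd, 3791 genes rose (23.1%) and 3424 fell (20.9%), and the median fold change over all tested genes was -0.012 on the log2 scale. Most changes were small: the median size among called genes was 0.467 on the log2 scale. A change of at least 2-fold was called for 1125 genes (6.86%), 728 higher (4.44%) and 397 lower (2.42%) in Brd. Large changes therefore leaned towards Brd, with 64.7% of the 2-fold calls higher there. Scaled with upper-quartile factors, which moved the median of all genes to -0.093, 3006 genes rose and 4527 fell, and 55.8% of the 2-fold calls were higher in Brd. The groups did not overlap in 72.5% of tested genes. With every library thinned to the smallest total 6832 genes were called, and 6110 without processed pseudogenes. With the 4 libraries of the other groups added to estimate the spread (the fit of 8 libraries), 1789 genes were called, 1147 higher and 642 lower. Brd had higher RNA of 13 of 14 tested genes of the glucocorticoid receptor and its targets, 14 of 19 collagens and 14 of 19 matricellular genes, and lower RNA of 20 of 20 cholesterol synthesis genes and 25 of 26 genes of mitosis, all by the same edgeR test and against the shares of 23.1% and 20.9% above. The 13 include Zbtb16, which passed the count filter through Brd alone. The counts of each list given hereafter stand against the same shares. Genes of bone mineral were split, with Ibsp 107-fold higher and 11 of 21 higher in all.

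**Figure D1:**
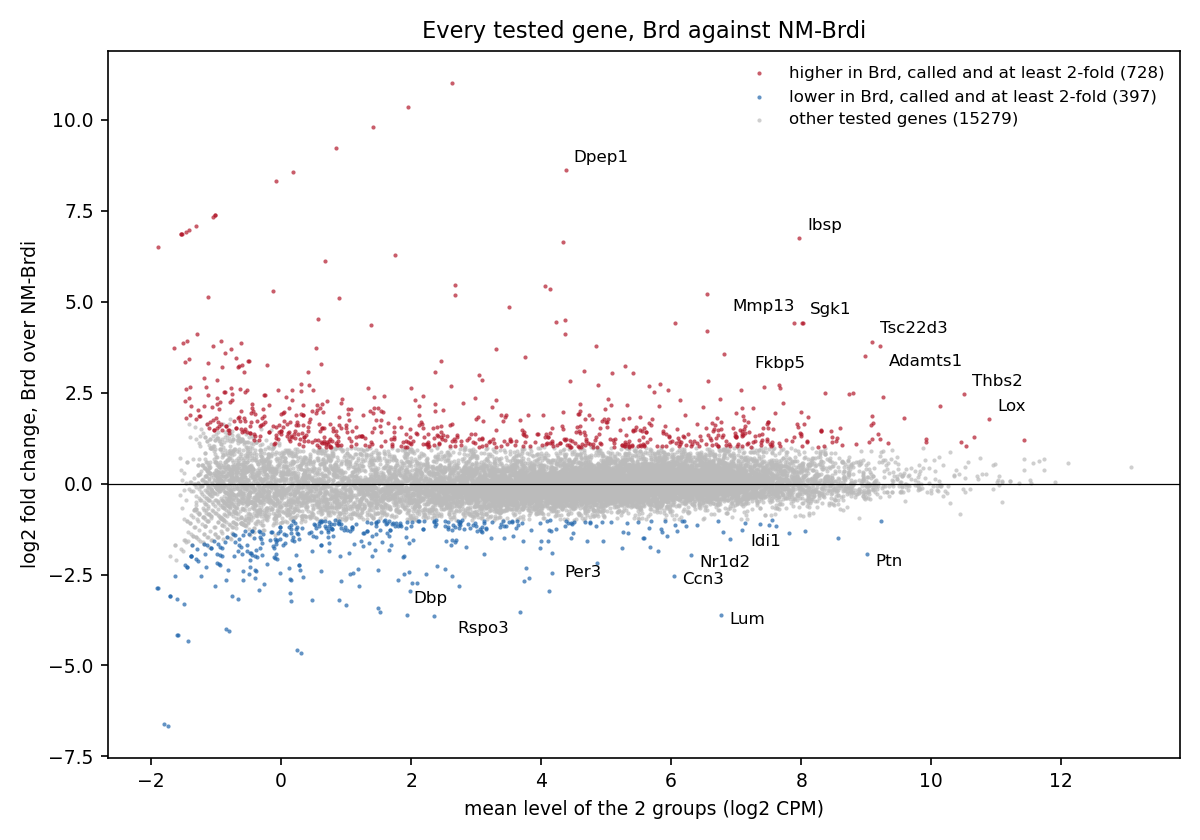
Mean level of the groups (x axis, log2 CPM) against the fitted log2 fold change of Brd over NM-Brdi (y axis), with 1 point per tested gene. The 728 red genes are called and at least 2-fold higher in Brd, the 397 blue ones are called and at least 2-fold lower. The red genes outnumber the blue ones, and the highest points at the left include fitted values of genes that had 0 counts in NM-Brdi, which are no measured fold.

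The glucocorticoid receptor and its targets had the highest median of the 37 gene lists with at least 5 tested genes. Of the 14 tested genes of this list, 13 rose in Brd and 1 fell, against 23.1% and 20.9% of all tested genes, and 10 rose at least 2-fold. The 13 and the 10 include Zbtb16, which passed the count filter through Brd alone. The direction of its call was thus fixed in advance. The median of the list was 1.76 on the log2 scale, against -0.012 over all tested genes. The count of higher genes was 12 to 14 in the other settings tried, and 13 in the fit of all 8 libraries. The list and its members were chosen with results of these data known.

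Tsc22d3 (chrX:140539528-140600659, GRCm38), which encodes the anti-inflammatory leucine zipper protein GILZ, had 965 and 1069 CPM in Brd, against 63.2 and 72.5 CPM in NM-Brdi. Its log2 fold change was 3.91 ± 0.07 (SE; edgeR adjusted p = 1.30e-13). Sgk1 (chr10:21882184-21999903), a serum- and glucocorticoid-regulated kinase, had 502 and 481 CPM in Brd, against 25.4 and 20.3 CPM in NM-Brdi, a log2 fold change of 4.42 ± 0.08 (SE; edgeR adjusted p = 1.50e-13). For both genes the lower Brd library was more than 10 times the higher NM-Brdi library. Fkbp5 (chr17:28399094-28517527), a co-chaperone that restrains the receptor, had 341 and 359.7 CPM in Brd, against 54.4 and 52.8 CPM in NM-Brdi, with a log2 fold change of 2.71 ± 0.06 (SE; edgeR adjusted p = 3.10e-13). Zbtb16, which encodes the zinc finger repressor PLZF, had 10.7 and 13.9 CPM in Brd and 0 counts in both NM-Brdi libraries. Set against a floor of 3 counts over the NM-Brdi group, its level was at least 208-fold higher in Brd, and the median of the list is 1.76 with this bound in place of the fitted value.

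Errfi1, a feedback inhibitor of EGF receptor signalling, had 157 and 175 CPM in Brd, against 23.1 and 23.7 CPM in NM-Brdi (log2 difference 2.82 ± 0.08, SE). Per1, a clock repressor, had 143 and 149 CPM in Brd, against 33.5 and 33.7 CPM in NM-Brdi. Glul, Pdk4 and Klf9 (glutamine synthetase, a kinase that inhibits pyruvate dehydrogenase, and a Krüppel-like repressor) had log2 fold changes of 1.75, 1.71 and 1.52. Dusp1, a phosphatase of MAP kinases, rose by 1.78 on the log2 scale, and part of its exons overlaps Ergic1. Cebpd, Mt1 and Ddit4 rose by 0.99, 0.78 and 0.75; Cebpd overlaps Spidr, and since the strand setting of the counting is not given, its value is uncertain. The receptor gene was the 1 member that fell, a call that was lost in the fit of 8 libraries, where 0 genes of the list were lower. Nr3c1 had 148 and 156 CPM in Brd, against 184 and 198 CPM in NM-Brdi, a log2 fold change of -0.33 ± 0.06 (SE; edgeR adjusted p = 4.55e-04). Dexamethasone is a component of the osteogenic medium, but the labels do not say which libraries received it, and its part in these differences was not tested.

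The palindrome of the glucocorticoid response element (AGAACA and TGTTCT with 3 bases of any kind between them, the same on both strands) is rare: 3 of 32851 RefSeq promoter windows of 300 bases (250 before to 50 after a start site) hold it, 0.00913%. Among the 14 genes of the list with a promoter in the table, Sgk1 was the single one with a match, in 1 of its 6 windows. That window (chr10:21993640-21993939, plus strand, GRCm38.p6) is shown because Sgk1 was among the genes with the largest difference, with the match, 189 bases before the start site, in capitals.
Sgk1: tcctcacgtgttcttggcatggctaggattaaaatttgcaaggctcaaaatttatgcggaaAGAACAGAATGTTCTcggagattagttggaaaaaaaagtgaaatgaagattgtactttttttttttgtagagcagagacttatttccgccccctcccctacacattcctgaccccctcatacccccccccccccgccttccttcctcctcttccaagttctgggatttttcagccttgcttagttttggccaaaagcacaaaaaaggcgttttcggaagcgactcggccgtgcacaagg
A match of letters is a description and does not show binding.

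**Figure D2:**
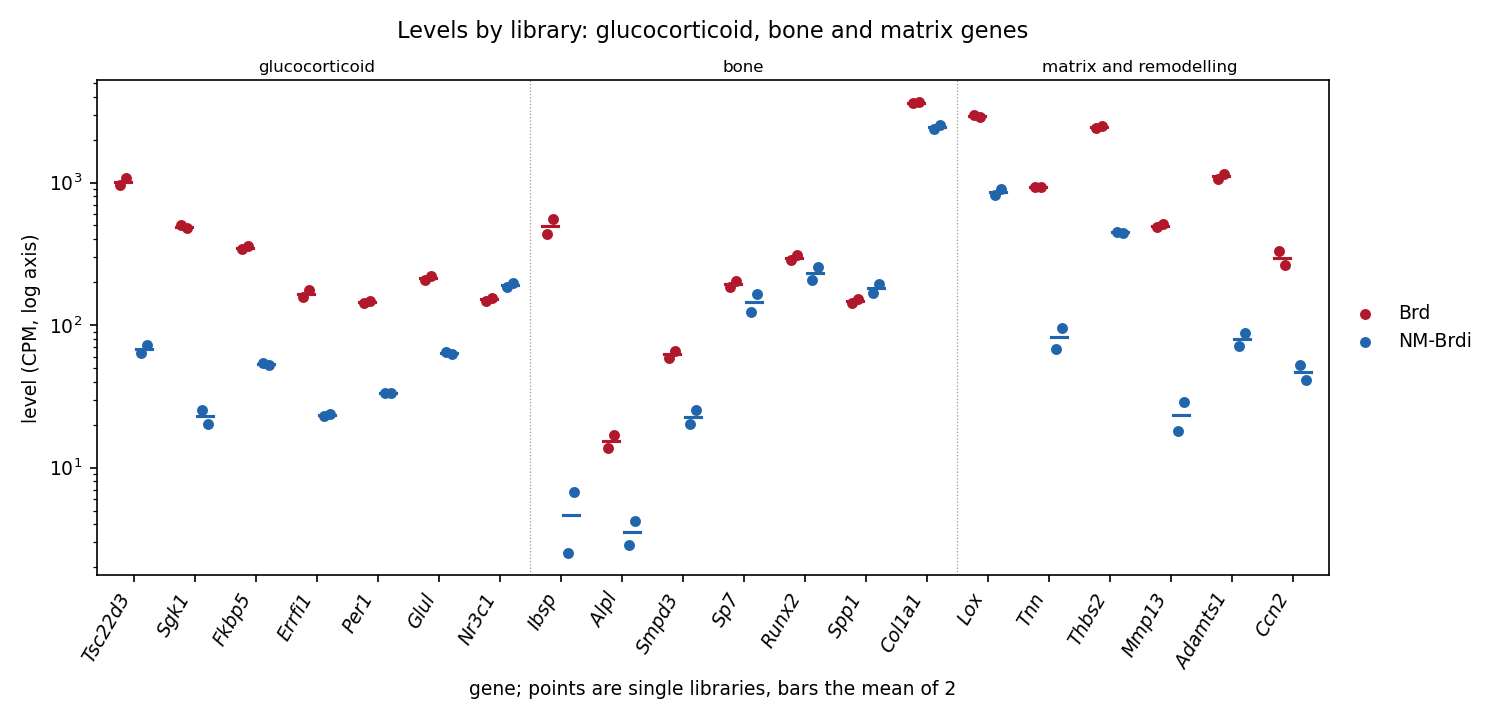
Level of 20 genes in each library (y axis, CPM on a log axis), with Brd in red left of NM-Brdi in blue; points are libraries and bars the mean of 2. Tsc22d3, Sgk1, Ibsp, Mmp13 and Adamts1 have no overlap between groups and gaps of more than 10-fold, whereas Sp7, Runx2 and Spp1 lie close together. Groups did not overlap in 72.5% of all tested genes.

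The mineralization programme was split between a few large rises and many small or absent changes. Of the 21 tested genes of bone matrix and mineralization, 11 rose in Brd and 4 fell, with a median log2 fold change of 0.147; in the fit of 8 libraries 8 were higher and 0 lower. Ibsp (chr5:104299171-104311469), the gene of bone sialoprotein, which binds collagen and nucleates mineral, had 436 and 553 CPM in Brd, against 2.52 and 6.76 CPM in NM-Brdi. Its log2 fold change of 6.75 ± 0.21 (SE; edgeR adjusted p = 1.55e-11) was 107-fold. The 2 NM-Brdi libraries differed more from each other, in proportion, than the Brd libraries did, but by far less than the groups. Alpl, the alkaline phosphatase that frees phosphate for mineral, had 13.7 and 16.9 CPM in Brd, against 2.87 and 4.25 CPM in NM-Brdi (log2 difference 2.11 ± 0.18, SE; edgeR adjusted p = 4.78e-07). Smpd3, a neutral sphingomyelinase needed for bone mineralization in mice, had 58.6 and 66.2 CPM in Brd, against 20.3 and 25.3 CPM in NM-Brdi, although exons of it overlap Prmt7. Omd, the keratan sulphate proteoglycan osteomodulin, had 90.6 and 105 CPM in Brd, against 35.2 and 53.7 CPM in NM-Brdi.

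Genes of the abundant matrix proteins rose by less. Col1a1 had 3610.3 and 3649 CPM in Brd, against 2369 and 2526 CPM in NM-Brdi, a log2 fold change of 0.57 ± 0.04 (SE; edgeR adjusted p = 2.50e-08). Col1a2 and Sparc, the other chain of type I collagen and the collagen-binding protein osteonectin, rose by 0.57 and 0.67 on the log2 scale. Not all bone genes followed. Spp1, osteopontin, had 144 and 154 CPM in Brd, against 169 and 194 CPM in NM-Brdi, a log2 fold change of -0.29 ± 0.07 (SE; edgeR adjusted p = 0.00406), and in the fit of 8 libraries its adjusted p was 0.227. Fam20c and Slc20a1, a kinase of secreted mineral-binding proteins and a phosphate transporter, fell by 0.39 and 0.27. Bglap, osteocalcin, was near the detection limit, with 1.80 and 1.98 CPM in Brd, against 1.67 and 2.55 CPM in NM-Brdi, and was not called (edgeR adjusted p = 0.715); it shares 439 nt of its transcript with Bglap2, so its value is uncertain. Of 5 tested markers of osteocytes, the mature cells of bone, 1 rose and 3 fell, with 0 and 1 in the fit of 8 libraries and 0 and 2 with DESeq2: in the fit of 4 libraries Phex rose (2.61 CPM in Brd and 1.08 CPM in NM-Brdi) while Pdpn, Fam20c and Dmp1 fell, Dmp1 with 0.186 and 0.232 CPM in Brd, against 0.465 and 1.01 CPM in NM-Brdi. Dmp1, also among the bone matrix genes counted as lower, passed the count filter through NM-Brdi alone, so its call could only be lower.

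Transcription factors of the osteoblast lineage changed little, 7 of 15 higher and 5 lower, with a median of -0.122 and no change of 2-fold. Sp7 (chr15:102356606-102367182), the factor the study centres on, had 186 and 204 CPM in Brd, against 124 and 165 CPM in NM-Brdi. Its log2 fold change was 0.43 ± 0.10 (SE; edgeR adjusted p = 0.0031), a call that was lost with DESeq2 (adjusted p = 0.133) and in the fit of 8 libraries (edgeR adjusted p = 0.104). Runx2 had 286 and 309 CPM in Brd, against 207 and 255 CPM in NM-Brdi, a log2 fold change of 0.37 ± 0.08 (SE; edgeR adjusted p = 0.0018), lost in the fit of 8 libraries (edgeR adjusted p = 0.122). For both factors the groups did not overlap, as in 72.5% of all tested genes. The gap between the nearest libraries of the groups was, however, smaller than the distance between the NM-Brdi libraries. Msx2 and Alx4, homeobox factors of skull development, rose by 0.94 and 0.76 on the log2 scale, and Atf4, which controls amino acid supply in osteoblasts, by 0.45. Mef2c, Twist1 and Snai2 fell by 0.64, 0.58 and 0.45; Twist1 is an inhibitor of Runx2. In the fit of 8 libraries 1 gene of the list was higher and 0 lower.

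Subunits of the BAF, PBAF and ncBAF complexes were near even. Of 24 tested, 8 rose and 5 fell, close to the shares of 23.1% and 20.9% over all tested genes, and their median log2 fold change was 0.0067; in the fit of 8 libraries 2 were higher and 1 lower. Brd9 had 24.4 and 24.4 CPM in Brd, against 29.5 and 28.8 CPM in NM-Brdi, a log2 fold change of -0.26 ± 0.09 (SE; edgeR adjusted p = 0.0294); the call was lost with DESeq2 (adjusted p = 0.169) and in the fit of 8 libraries (edgeR adjusted p = 0.181). The ncBAF subunit genes Bicra and Bicral rose by 0.35 and 0.50 on the log2 scale, and the PBAF genes Phf10 and Arid2 by 0.55 and 0.43. The core genes Smarcc1, Smarcc2 and Smarce1 fell by 0.22, 0.27 and 0.31. Exons of Phf10 overlap another transcript with more counts, so its value is uncertain. I-BRD9 acts on the protein, so the level of Brd9 mRNA is no check of treatment.

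Of 19 tested collagen genes 14 rose and 1 fell, against 23.1% and 20.9% of all tested genes, with a median log2 fold change of 0.568; in the fit of 8 libraries 11 were higher and 0 lower. Col12a1, a fibril-associated collagen of bone surface and tendon, had 3832 and 3814 CPM in Brd, against 1640.0 and 1698 CPM in NM-Brdi (log2 difference 1.20 ± 0.03, SE; edgeR adjusted p = 6.76e-12). Col11a1 and Col5a1, which set the diameter of collagen fibrils, rose by 1.10 and 0.98 on the log2 scale, and the basement membrane chains Col4a1 and Col4a2 by 0.73 and 0.69. Col16a1 was the gene that fell, by 0.35. The enzymes that process and cross-link collagen gave 11 higher and 2 lower of 19, with 9 higher and 0 lower in the fit of 8 libraries. Lox, the lysyl oxidase that starts cross-links, had 2995 and 2865 CPM in Brd, against 822 and 899 CPM in NM-Brdi (log2 difference 1.77 ± 0.05, SE; edgeR adjusted p = 2.04e-12), and its libraries were tight in both groups. Plod2, which hydroxylates telopeptide lysines, had 386 and 363 CPM in Brd, against 179.8 and 156 CPM in NM-Brdi, and Loxl1 rose by 1.02. Chaperones of collagen changed less, with Serpinh1 at 0.25 and Fkbp10 at 0.47 on the log2 scale.

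Small leucine-rich proteoglycans, which coat collagen fibrils, split: 5 of 11 rose and 2 fell, 3 and 2 in the fit of 8 libraries. The 2 that fell had the largest changes of the list. Lum (chr10:97565128-97572703), lumican, had 13.7 and 19 CPM in Brd, against 172 and 231 CPM in NM-Brdi. Its log2 fold change was -3.62 ± 0.14 (SE; edgeR adjusted p = 1.68e-10). Dcn, decorin, had 16.7 and 17.5 CPM in Brd, against 48.9 and 68.7 CPM in NM-Brdi (log2 difference -1.78 ± 0.14, SE). Fmod, fibromodulin, went the other way with 2035 and 2219 CPM in Brd, against 1240.0 and 1370.3 CPM in NM-Brdi, and Bgn and Aspn rose by 0.38 and 0.40. Omd, given above, belongs to this family too.

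Matricellular and elastic matrix genes mostly rose. Of 19 tested, 14 rose and 2 fell, against 23.1% and 20.9% of all tested genes, with a median log2 fold change of 0.68. In the fit of 8 libraries 11 were higher and 1 lower. Thbs2, a thrombospondin that binds collagen and growth factors, had 2414 and 2505 CPM in Brd, against 452 and 445 CPM in NM-Brdi. Its relative Thbs1 had 1874 and 1801 CPM in Brd, against 446 and 397 CPM in NM-Brdi. Tnn, tenascin-W, an extracellular protein of bone and its precursors, had 931 and 932 CPM in Brd, against 68.5 and 95.2 CPM in NM-Brdi (log2 difference 3.51 ± 0.11, SE; edgeR adjusted p = 9.54e-12). In these 3 genes every Brd library was more than 3 times every NM-Brdi library. Postn and Tnc, periostin and tenascin-C, rose by 1.27 and 1.03, and Vcan, the proteoglycan versican, by 1.70. Within the CCN family the members went opposite ways. Ccn2 (connective tissue growth factor) had 329 and 264 CPM in Brd, against 52.8 and 41.2 CPM in NM-Brdi, and Ccn1 had 869 and 807 CPM in Brd, against 357 and 299 CPM in NM-Brdi. Ccn3 had 19.1 and 19.8 CPM in Brd, against 119 and 105 CPM in NM-Brdi, a log2 fold change of -2.53 ± 0.08 (SE; edgeR adjusted p = 2.64e-11), and Thbs3 was the other gene of the list that fell, by 0.49.

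Ccn1 and Ccn2 are also targets of YAP and TAZ, coactivators of TEAD factors that respond to cell tension and density. Of the 18 tested genes of that list 14 rose and 2 fell, with a median log2 fold change of 0.491; 7 were higher and 0 lower in the fit of 8 libraries. Ankrd1, a sarcomere-associated target, had 74.2 and 63.7 CPM in Brd, against 29.6 and 20.7 CPM in NM-Brdi (log2 difference 1.45 ± 0.13, SE; edgeR adjusted p = 5.84e-07). The angiomotins Amotl1 and Amotl2, which bind YAP, and Lats2, a kinase that inhibits it, rose by 0.38, 0.50 and 0.50, and F3 and Axl fell by 0.22 and 0.22. Genes of the contractile apparatus rose in 9 of 11 and fell in 0, with a median of 0.744, and 6 rose in the fit of 8 libraries. Acta2, smooth muscle actin, had 1411 and 1364 CPM in Brd, against 844 and 813 CPM in NM-Brdi, Lmod1, which nucleates actin filaments, rose by 1.39, and Tpm2 and Smtn by 1.05 and 1.03. Skeletal muscle markers were mostly untested, with Acta1 alone at 16.2 CPM in Brd and 9.62 CPM in NM-Brdi.

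The 6-base core of the TEAD motif (GGAATG, searched on both strands) is found in 14.7% of the RefSeq promoter windows, and 8 of the 15 YAP/TAZ list genes with a promoter in the table held it in any window: Ajuba, Amotl2, Ankrd1, Axl, Ccn1, Crim1, Lats2 and Ptpn14. Of these, Axl fell. The share is of windows and the count is of genes, some with several windows, so the measures are unlike. The window of Ankrd1 (chr19:36119795-36120094, minus strand, GRCm38.p6) is shown because Ankrd1 rose more than 2-fold and because the window holds 2 matches, as does that of Ajuba. They lie 210 and 123 bases before the start site and are in capitals.
Ankrd1: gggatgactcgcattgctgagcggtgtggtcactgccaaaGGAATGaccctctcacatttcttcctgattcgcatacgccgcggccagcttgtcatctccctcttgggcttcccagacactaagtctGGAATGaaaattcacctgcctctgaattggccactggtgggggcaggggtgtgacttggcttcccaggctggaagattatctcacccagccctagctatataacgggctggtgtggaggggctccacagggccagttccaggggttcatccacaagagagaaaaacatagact

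Of 18 tested matrix proteases and inhibitors 13 rose and 1 fell, 7 and 1 in the fit of 8 libraries. Mmp13 (chr9:7272514-7283331), the collagenase of bone and hypertrophic cartilage, had 484 and 514 CPM in Brd, against 18.1 and 28.8 CPM in NM-Brdi (log2 difference 4.41 ± 0.13, SE; edgeR adjusted p = 9.54e-12). Adamts1, an aggrecan- and versican-cleaving protease, had 1062 and 1155 CPM in Brd, against 71.7 and 88.2 CPM in NM-Brdi (log2 difference 3.79 ± 0.08, SE; edgeR adjusted p = 2.91e-13). For both, every Brd library was more than 10 times every NM-Brdi library. Adamts5 and Mmp11 rose by 0.86 and 0.74 on the log2 scale, and Mmp2 and Mmp14 by 0.43 and 0.20. Mmp9 was the gene that fell, with 0.372 and 0.349 CPM in Brd, against 1.20 and 2.43 CPM in NM-Brdi. It passed the count filter through NM-Brdi alone, so its call could only be lower. Integrins and laminins gave 10 higher and 4 lower of 19, with 7 higher and 1 lower in the fit of 8 libraries. Itga10 and Itga11 pair with Itgb1 as collagen receptors. Itga10 had 69.7 and 71.3 CPM in Brd, against 5.54 and 9.55 CPM in NM-Brdi, and Itga11 had 258 and 249 CPM in Brd, against 133 and 123 CPM in NM-Brdi. Itgb1 rose by 0.42, and Itgb3, Itga6 and Itgb8 fell by 0.61, 0.99 and 1.36. The group means of Itgb8 were under 10 CPM.

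Outside the lists, several of the genes with the largest rises were almost silent in NM-Brdi. The genes were picked by fold change, with at least 10 CPM asked of the higher group alone. A very low NM-Brdi level is thus partly built into the choice. Dpep1 (chr8:123186242-123201812), a membrane dipeptidase, had 43.2 and 39.6 CPM in Brd against 3 and 2 counts, 0.116 and 0.0809 CPM, in NM-Brdi (log2 difference 8.62 ± 0.21, SE; edgeR adjusted p = 1.35e-12). Crispld2, a secreted protein, had 33.2 and 31.8 CPM in Brd, against 0.659 and 0.850 CPM in NM-Brdi. Hspb7, a small heat shock protein of muscle, had 35.1 and 33.8 CPM in Brd, against 0.853 and 0.809 CPM in NM-Brdi. All 3 were under 1 CPM in both NM-Brdi libraries. Dpep1 passed the count filter through Brd alone, so the direction of its call was fixed in advance. Rgcc and Shroom3, a cell cycle regulator and an actin-binding protein of apical constriction, had 23.1 and 20.9 CPM and 38.0 and 33.9 CPM in Brd, against 0.814 and 0.688 CPM and 1.71 and 1.58 CPM in NM-Brdi. Tns1 and Adam12, a focal adhesion protein and a metalloprotease, rose by similar factors: Tns1 had 429.9 and 481 CPM in Brd, against 18.2 and 24.5 CPM in NM-Brdi, and Adam12 176 and 179 CPM in Brd, against 8.76 and 10.7 CPM in NM-Brdi.

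Among the genes that fell most outside the lists, Rspo3, an R-spondin that amplifies Wnt signals, had 2.17 and 1.86 CPM in Brd, against 23.0 and 24.0 CPM in NM-Brdi (log2 difference -3.54 ± 0.15, SE; edgeR adjusted p = 3.29e-10). Lamp5, Samd5, Ly6a and Abi3bp fell by 2.67, 2.61, 2.53 and 2.31 on the log2 scale; Lamp5 encodes a LAMP family membrane protein, Ly6a the surface antigen Sca-1 of progenitor cells and Abi3bp an extracellular protein. Gas2 fell by 2.94, with exons that overlap Fancf. Prrx1, a homeobox factor of skeletal mesenchyme, had 996 and 1008 CPM in Brd, against 1811 and 1738 CPM in NM-Brdi. Ptn, the growth factor pleiotrophin, had 204 and 224 CPM in Brd, against 750.3 and 882 CPM in NM-Brdi, and Thbd, the anticoagulant receptor thrombomodulin, 381 and 404 CPM in Brd, against 791 and 809 CPM in NM-Brdi. Nsg1 fell by 1.5, with exons that overlap Stx18.

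In the IGF axis 9 of 12 tested genes rose and 1 fell, with a median log2 fold change of 0.889 and with 6 higher and 0 lower in the fit of 8 libraries. Igf1 had 1032 and 1015 CPM in Brd, against 206 and 189.8 CPM in NM-Brdi (log2 difference 2.37 ± 0.05, SE; edgeR adjusted p = 2.92e-13). Pappa, the protease that frees IGF from its binding proteins, had 93.1 and 88.5 CPM in Brd, against 14.9 and 16.8 CPM in NM-Brdi, and its substrate Igfbp4 had 195 and 194 CPM in Brd, against 81.4 and 74.8 CPM in NM-Brdi. The receptor Igf1r rose by 0.26 and the receptor substrates Irs1 and Irs2 by 1.04 and 1.25. In the TGF-beta list 11 of 15 rose and 1 fell, with 6 higher in the fit of 8 libraries. Ltbp1 and Ltbp2, of the family of latent TGF-beta binding proteins, rose by 1.40 and 3.09, the co-receptor Tgfbr3 by 2.08, and the ligands Tgfb1 and Tgfb3 by 0.68 and 0.84. Of the signalling receptors, Tgfbr1 rose by 0.45 and Tgfbr2 fell by 0.36; the fall of Tgfbr2 was lost in the fit of 8 libraries.

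BMP genes gave 8 higher and 3 lower of 16, and 4 and 2 in the fit of 8 libraries. Gdf6, a BMP ligand of skull and joint development, had 12.1 and 17.0 CPM in Brd, against 2.13 and 1.54 CPM in NM-Brdi (log2 difference 2.99 ± 0.21, SE; edgeR adjusted p = 6.95e-08). Of the secreted antagonists, Nog had 0.619 and 0.523 CPM in Brd, against 7.29 and 6.84 CPM in NM-Brdi, a log2 fold change of -3.62 ± 0.26 (SE; edgeR adjusted p = 9.14e-08), and Grem1 fell by 0.98. The inhibitory Smad6 and Smad7 rose by 0.56 and 0.31, while Id2 fell by 0.22 and Id1 (-0.23, edgeR adjusted p = 0.101) and Id3 (-0.12, edgeR adjusted p = 0.116) were not called. FGF genes gave 5 higher and 2 lower of 15, not far from the shares of 23.1% and 20.9% over all tested genes, with receptors Fgfr3 (334 against 138 CPM in Brd and NM-Brdi) and Fgfr2 and the MAP kinase phosphatases Dusp5 and Dusp6 among those that rose; Fgfr2 exons overlap Ctbp2. Of Hedgehog and Notch genes 6 of 14 rose and 4 fell, 2 and 2 in the fit of 8 libraries: Notch1, Notch3 and the Hedgehog co-receptor Boc rose by 1.15, 1.10 and 1.06, and Gas1 and Hes1 fell by 0.87 and 1.68. The group means of Hes1 were under 10 CPM.

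Of 12 tested Wnt/β-catenin targets and feedback genes 2 rose and 6 fell, against 23.1% and 20.9% of all tested genes, with a median of -0.444; in the fit of 8 libraries 1 was higher and 3 lower, and with DESeq2 2 and 3. Axin2, the best-known feedback target, had 36.5 and 40.9 CPM in Brd, against 20.2 and 25.8 CPM in NM-Brdi (log2 difference 0.75 ± 0.11, SE; edgeR adjusted p = 8.62e-05), and the receptor-degrading ligase gene Znrf3 rose by 0.53. Its paralogue Rnf43 had 11.7 and 11.5 CPM in Brd, against 31.0 and 34.1 CPM in NM-Brdi. Lef1 (group means under 10 CPM) and Tcf7l2, DNA-binding partners of β-catenin, fell by 1.83 and 0.41. Axin2 and Rnf43 thus went opposite ways although both are feedback targets. Ctnnb1, the gene of β-catenin, had 549 and 585 CPM in Brd, against 367 and 382 CPM in NM-Brdi (log2 difference 0.60 ± 0.05, SE; edgeR adjusted p = 3.38e-07). Secreted antagonists gave 3 higher and 1 lower of 4: Wif1 had 57.7 and 63.8 CPM in Brd, against 5.66 and 9.23 CPM in NM-Brdi, Dkk3 and Draxin rose by 0.66 and 1.04, and Sfrp2 had 119 and 122 CPM in Brd, against 280.2 and 265 CPM in NM-Brdi.

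Circadian clock genes moved in opposite directions, 5 of 15 higher and 7 lower. In the clock, BMAL1 (Arntl) and CLOCK drive the genes of their own repressors, the PER, CRY and REV-ERB proteins, and of output factors such as Dbp and Tef. Arntl had 25.4 and 25.9 CPM in Brd, against 6.90 and 7.00 CPM in NM-Brdi (log2 difference 1.88 ± 0.11, SE; edgeR adjusted p = 9.22e-09), and Clock rose by 0.36. The products of the REV-ERB genes Nr1d1 and Nr1d2 repress Arntl. Nr1d1 had 11.6 and 14.5 CPM in Brd, against 39.5 and 38.5 CPM in NM-Brdi, and Nr1d2 had 32.3 and 32.8 CPM in Brd, against 126 and 126 CPM in NM-Brdi. The groups did not overlap in these 4 genes, as in 72.5% of all tested genes. The first pair was higher in Brd and the REV-ERB genes lower. Nfil3, a repressor of the Dbp family's target sites, had 81.3 and 79.8 CPM in Brd, against 25.8 and 21.2 CPM in NM-Brdi. Tef had 92.3 and 101 CPM in Brd, against 187 and 195 CPM in NM-Brdi, and Per3 had 5.26 and 5.81 CPM in Brd, against 29.0 and 31.9 CPM in NM-Brdi. Dbp had 1.67 and 1.63 CPM in Brd, against 12.5 and 10.8 CPM in NM-Brdi, but its exons overlap Sphk2, which has more counts, so its value is uncertain. The period genes did not go together: Per1 rose by 2.12, Per3 fell by 2.46, and Per2 (-0.39, edgeR adjusted p = 0.054) was not called. Bhlhe40, which represses through E-boxes, had 24.4 and 26.2 CPM in Brd, against 65.4 and 76.5 CPM in NM-Brdi, and Cry1 rose by 0.80. The labels give no time of day or of harvest for these groups, and its part was not tested.

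The canonical E-box bound by CLOCK and BMAL1 (CACGTG, the same on both strands) is found in 7.15% of the RefSeq promoter windows, and in any window of 5 of the 15 clock genes with a promoter in the table: Bhlhe41, Ciart, Cry1, Per1 and Tef. Here too the share is of windows and the count is of genes. Per1 and Tef are shown because both carry a single E-box in the window and changed in opposite directions, Per1 (chr11:69098699-69098998) with the match 166 bases and Tef (chr15:81802423-81802722) 127 bases before the start site, both on the plus strand of GRCm38.p6 and with the E-box in capitals.
Per1: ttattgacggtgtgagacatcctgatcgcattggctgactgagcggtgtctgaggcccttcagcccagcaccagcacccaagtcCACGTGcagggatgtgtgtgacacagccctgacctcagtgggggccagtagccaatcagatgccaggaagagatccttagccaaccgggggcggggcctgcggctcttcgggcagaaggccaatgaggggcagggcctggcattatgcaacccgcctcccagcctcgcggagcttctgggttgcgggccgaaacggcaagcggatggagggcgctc
Tef: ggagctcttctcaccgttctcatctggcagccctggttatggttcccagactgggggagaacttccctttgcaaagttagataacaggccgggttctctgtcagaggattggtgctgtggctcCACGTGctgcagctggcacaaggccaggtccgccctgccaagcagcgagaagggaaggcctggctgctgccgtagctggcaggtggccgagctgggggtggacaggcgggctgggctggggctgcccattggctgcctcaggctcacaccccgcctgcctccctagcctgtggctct

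**Figure D3:**
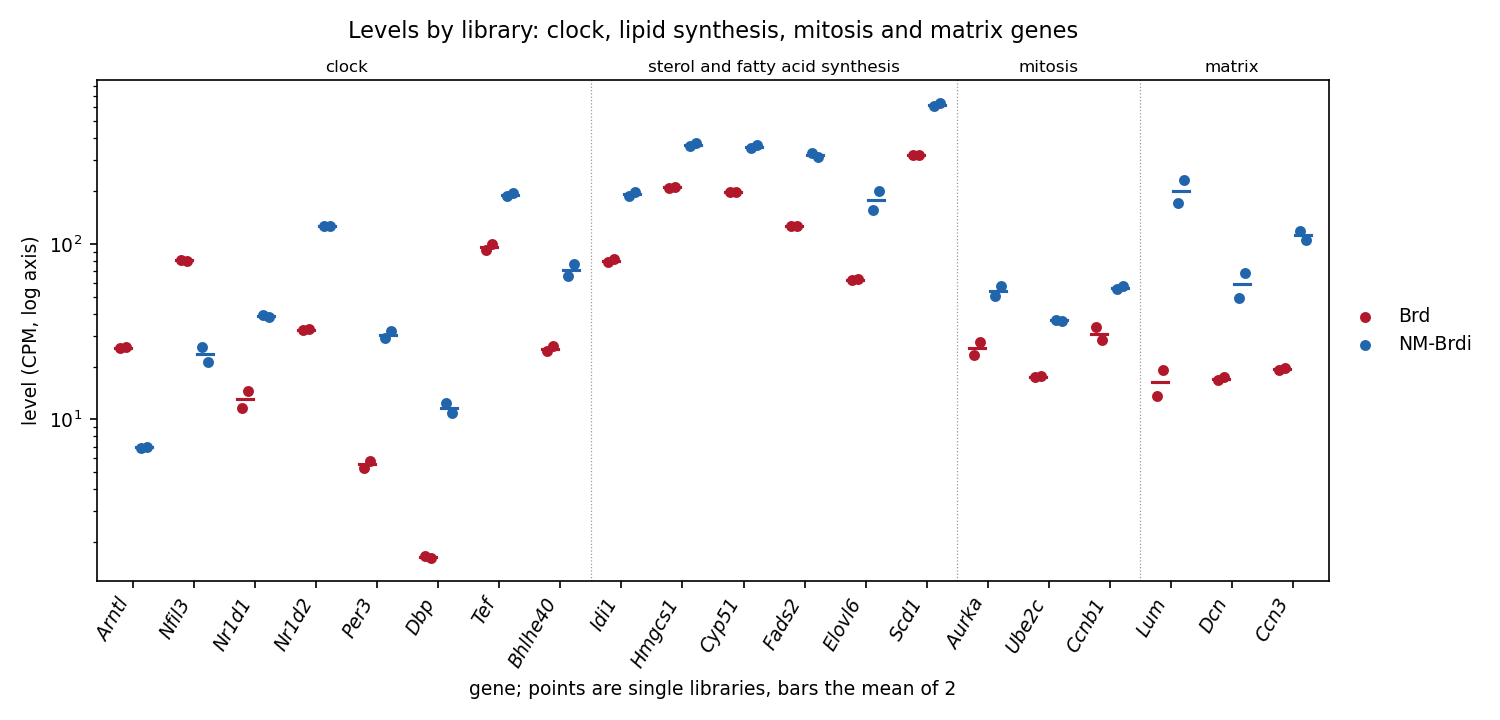
Level of 20 genes in each library (y axis, CPM on a log axis), with Brd in red left of NM-Brdi in blue; points are libraries and bars the mean of 2. Arntl and Nfil3 are higher in Brd and the other 18 genes lower, with no overlap between groups in any of the 20. Groups did not overlap in 72.5% of all tested genes.

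All 20 tested genes of cholesterol synthesis fell in Brd and 0 rose, by edgeR with Benjamini-Hochberg adjustment, against 20.9% of all tested genes that fell, and the median log2 fold change was -0.806. The count was 20 with DESeq2, 19 to 20 when 1 library was left out and 16 in the fit of 8 libraries. Hmgcs1, the synthase at the start of the pathway, had 209 and 211 CPM in Brd, against 361 and 375 CPM in NM-Brdi (log2 difference -0.81 ± 0.05, SE; edgeR adjusted p = 1.67e-08). Further down the pathway Cyp51, a sterol demethylase, had 197 and 198 CPM in Brd, against 350.2 and 366 CPM in NM-Brdi, and Lss, lanosterol synthase, 46.6 and 48.2 CPM in Brd, against 94.9 and 97.4 CPM in NM-Brdi. The groups did not overlap in any of these 3 genes, as in 72.5% of all tested genes. Idi1 fell by 1.27, Fdft1 by 1.35 and Msmo1 by 1.14, but Idi1 has processed copies, Fdft1 shares sequence with Ctsb and Msmo1 short stretches with other genes, so these are uncertain. Hmgcs1, Cyp51 and Lss were not checked for such sharing. Srebf2, the transcription factor of the pathway, fell least, by 0.19, and its target Insig1, the gene of a protein that retains SREBP in the endoplasmic reticulum, fell by 0.87.

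The sterol regulatory element (TCACNCCAC, searched on both strands) is in 1.24% of RefSeq promoter windows and, among the 13 list genes with a promoter in the table, in that of Hmgcs1 alone. That window (chr13:119690101-119690400, plus strand, GRCm38.p6) is shown for this reason, with the element, 137 bases before the start site, in capitals.
Hmgcs1: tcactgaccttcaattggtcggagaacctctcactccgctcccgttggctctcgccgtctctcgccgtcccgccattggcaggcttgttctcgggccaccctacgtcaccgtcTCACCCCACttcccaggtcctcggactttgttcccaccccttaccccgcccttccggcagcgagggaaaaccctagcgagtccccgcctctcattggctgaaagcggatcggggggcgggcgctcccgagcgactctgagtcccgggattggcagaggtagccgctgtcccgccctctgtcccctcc

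Fatty acid synthesis moved the same way, with 11 of 14 tested genes lower and 1 higher and a median of -0.61. In the fit of 8 libraries 9 were lower and 1 higher. Fads2, a desaturase, had 127 and 126 CPM in Brd, against 329 and 314 CPM in NM-Brdi, and Elovl6, an elongase, had 62.3 and 62.8 CPM in Brd, against 157 and 199.5 CPM in NM-Brdi. Scd1, the stearoyl desaturase, had 323 and 320.0 CPM in Brd, against 608 and 639 CPM in NM-Brdi. Scd1 shares a stretch of 623 nt with Scd2, which has more counts, so its value is uncertain. Acaca and Fasn, which make malonyl-CoA and palmitate, fell by 0.79 and 0.44. Elovl7 rose, with 26.2 and 23.9 CPM in Brd, against 13.1 and 8.90 CPM in NM-Brdi, and Srebf1 (-0.04, edgeR adjusted p = 0.676) was not called. Adipocyte genes were mixed, 2 of 9 higher and 5 lower (2 lower in the fit of 8 libraries), and Pparg and Fabp4 were too low to be tested.

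Of 26 tested genes of mitosis 25 fell in Brd and 0 rose by edgeR with Benjamini-Hochberg adjustment, against 20.9% and 23.1% of all tested genes, with a median log2 fold change of -0.669; 18 fell in the fit of 8 libraries. Aurka, a kinase of spindle assembly, had 23.3 and 27.5 CPM in Brd, against 50.7 and 57.9 CPM in NM-Brdi (log2 difference -1.09 ± 0.10, SE; edgeR adjusted p = 7.24e-07), and Ube2c, which works with the anaphase-promoting complex, 17.3 and 17.6 CPM in Brd, against 37.1 and 36.3 CPM in NM-Brdi. Ccnb1, cyclin B, had 33.4 and 28.3 CPM in Brd, against 55.2 and 57.5 CPM in NM-Brdi, whereas Mki67 fell by 0.36. Mybl2 (-0.24, edgeR adjusted p = 0.0783) was the gene that was not called. Genes of DNA replication fell by less, 18 of 25 lower and 0 higher with a median of -0.353, and 5 of them in the fit of 8 libraries. Cdc6 and Tk1, a loading factor of the replicative helicase and thymidine kinase, fell by 0.83 and 0.82, Mcm4 by 0.65, and Rrm1 (0.08, edgeR adjusted p = 0.247) was not called; Cdc6 shares 1260 nt with Gm9430.

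Of 16 CDK inhibitors, D cyclins and p53 targets 10 rose and 2 fell, with 7 higher and 1 lower in the fit of 8 libraries. Cdkn1a, p21, had 338 and 340.0 CPM in Brd, against 224 and 242 CPM in NM-Brdi (log2 difference 0.54 ± 0.05, SE; edgeR adjusted p = 1.84e-06), Trp53inp1 and Sesn1 rose by 0.87 and 0.69, and Cdkn2c fell by 0.41. Cdkn1b (-0.01, edgeR adjusted p = 0.891) and Ccnd1 (0.14, edgeR adjusted p = 0.117) were not called. Of 8 tested replication-dependent histone genes 1 rose and 3 fell, with 0 higher in the fit of 8 libraries.

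Among stress and metabolic lists, targets of the oxidative stress factor NRF2 were mostly lower, 14 of 17 against 3 higher, with a median of -0.455; 1 was higher and 7 lower in the fit of 8 libraries. Nqo1, a quinone reductase, had 17.2 and 18.3 CPM in Brd, against 37.2 and 42.3 CPM in NM-Brdi. The subunits of the glutathione-producing enzyme went apart: the catalytic Gclc had 273 and 288 CPM in Brd, against 105 and 92.6 CPM in NM-Brdi, and the modifier Gclm 53.8 and 53.6 CPM in Brd, against 90.7 and 91.0 CPM in NM-Brdi. Hypoxia and glycolysis genes gave 5 higher and 11 lower of 21, with 3 and 3 in the fit of 8 libraries. Vegfa, the vascular growth factor, had 209 and 212 CPM in Brd, against 71.0 and 70.4 CPM in NM-Brdi, while Pkm and Pfkfb3 fell by 0.59 and 0.50. Ldha, Eno1 and Tpi1 fell by 0.88, 0.96 and 0.84 but have processed copies, and the share of counts on such copies was lower in Brd too. Pkm and Pfkfb3 were not checked for shared sequence. Genes of the ER stress and amino acid response gave 13 higher and 2 lower of 23, and 8 and 0 in the fit of 8 libraries. Slc3a2 and Slc7a5, the paired chains of an amino acid transporter, and Asns, asparagine synthetase, rose by 0.95, 0.59 and 0.69, and the chaperone gene Hspa5 by 0.28.

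Immediate early genes gave 10 higher and 5 lower of 21, with 6 and 6 under upper-quartile factors and 3 and 2 in the fit of 8 libraries. Fosl2 and Jun, of the AP-1 family, rose by 1.08 and 0.86, and Egr1, a zinc finger factor, had 16.3 and 17.7 CPM in Brd, against 31.9 and 33.6 CPM in NM-Brdi, with 3.34 and 3.84 CPM in Brd, against 12.3 and 15.3 CPM in NM-Brdi for its relative Egr2. Interferon-stimulated genes gave 1 higher and 7 lower of 19 (4 lower in the fit of 8 libraries), with Irf1, an interferon regulatory factor, lower by 0.73. Chemokines and inflammatory mediators were even, 5 higher and 5 lower of 12, and 1 and 3 in the fit of 8 libraries: Nfkbia and Tnfaip3, inhibitors of NF-κB, rose by 0.75 and 0.82, and Vcam1 and Cx3cl1 fell by 0.79 and 0.94. Of 5 tested factors that couple osteoblasts to osteoclasts 2 rose and 2 fell, with 0 lower in the fit of 8 libraries. Csf1 had 875 and 881 CPM in Brd, against 435 and 383 CPM in NM-Brdi, and Il34, a second ligand of the same receptor, 6.75 and 7.09 CPM in Brd, against 1.01 and 1.21 CPM in NM-Brdi, while Sema3a fell by 0.46. Tnfrsf11b, the decoy receptor osteoprotegerin, was not called (-0.15, edgeR adjusted p = 0.252).

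Markers of neighbouring skeletal lineages were unevenly represented. Of 11 chondrocyte genes 6 rose and 0 fell by edgeR, with a median of 0.734, and 5 rose in the fit of 8 libraries. Hapln1, a link protein of hyaluronan, had 37.3 and 41.1 CPM in Brd, against 1.94 and 2.55 CPM in NM-Brdi, and Panx3, a channel of bone and cartilage, 42.5 and 54.6 CPM in Brd, against 9.34 and 19.1 CPM in NM-Brdi. Sox9, the defining factor of the lineage, was not called (-0.10, edgeR adjusted p = 0.198), and Acan, Col10a1 and Matn1 were too low to be tested. Of 6 tendon genes 2 rose and 3 fell, with 1 higher and 2 lower in the fit of 8 libraries. Of 13 mitochondrially encoded genes 7 rose and 1 fell, with 2 and 0 in the fit of 8 libraries; mt-Nd5 and mt-Co1 rose by 0.61 and 0.47 but share sequence with other genes of the table and are uncertain. Mitochondrial genes made up 3.37% and 3.38% of counts in Brd, against 3.11% and 3.1% in NM-Brdi. Of 5 aryl hydrocarbon receptor targets 1 rose and 0 fell by edgeR, with 0 higher in the fit of 8 libraries.

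**Figure D4:**
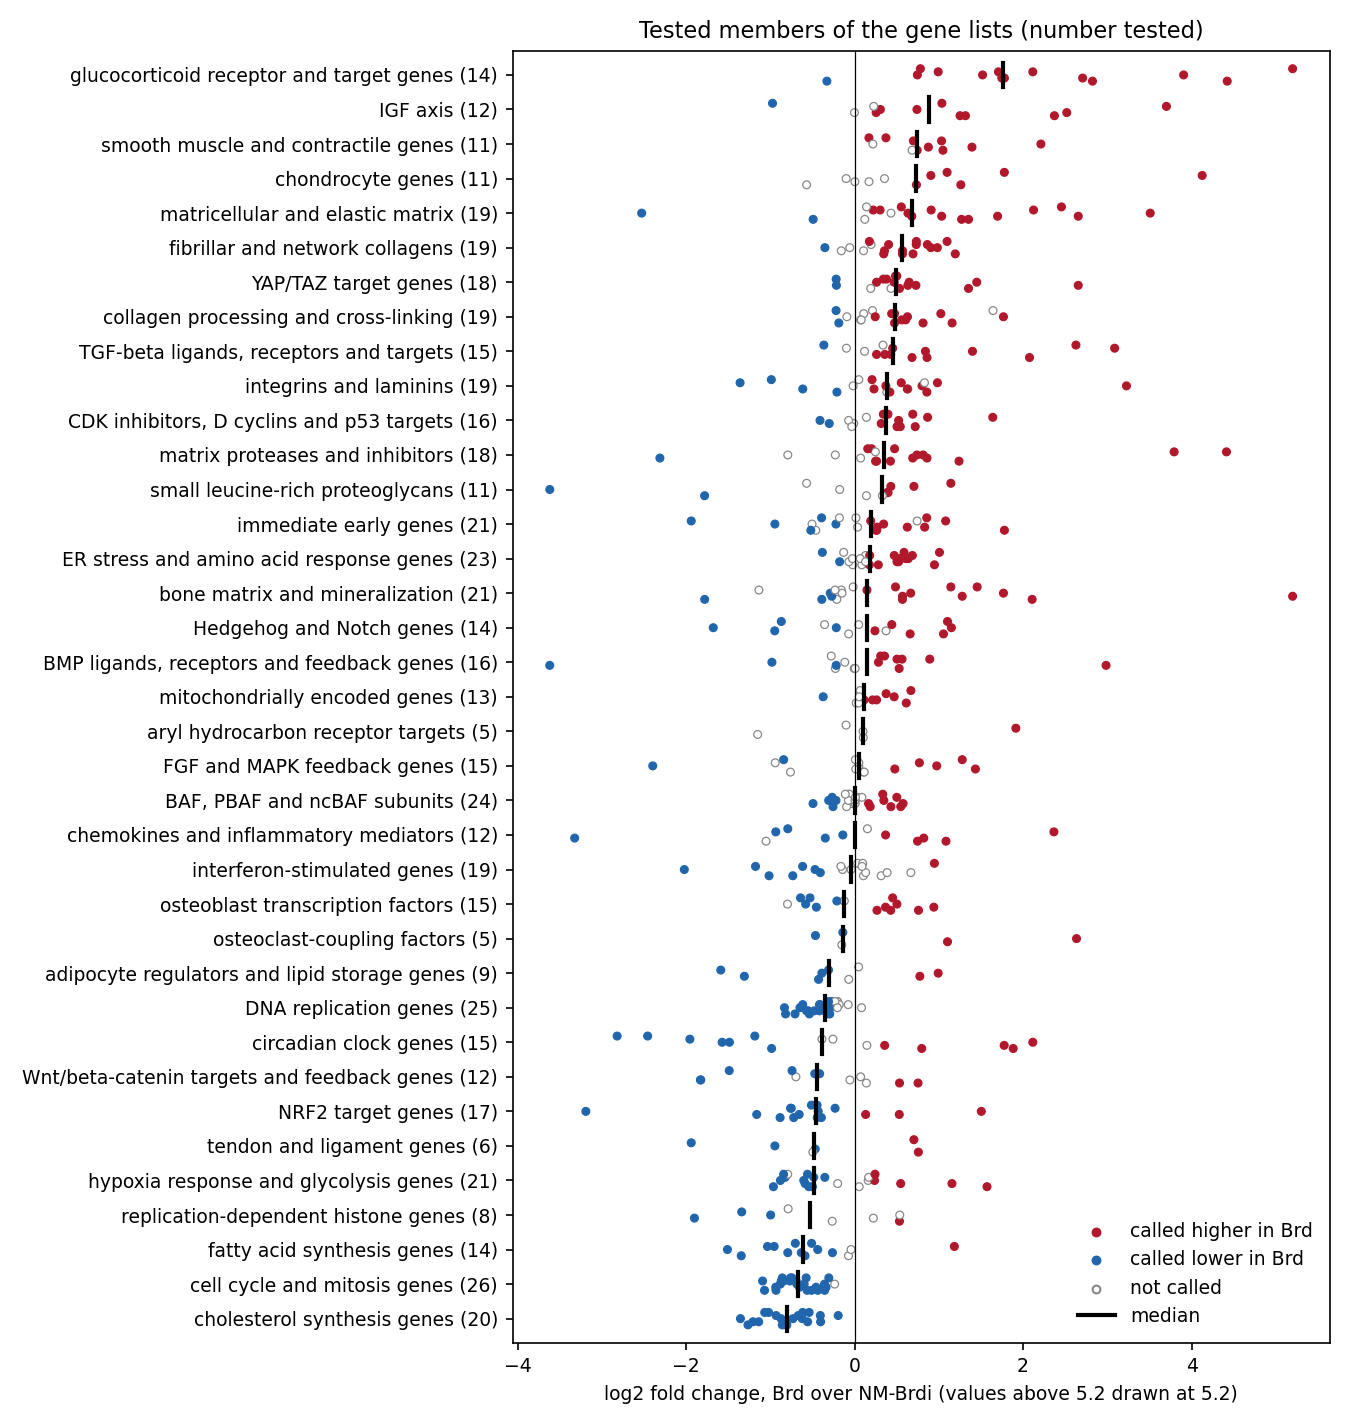
Fitted log2 fold change of Brd over NM-Brdi (x axis) of every tested member of 37 gene lists with at least 5 tested genes (rows, with the number tested), ordered by median (black bar), with values beyond the right edge drawn at it. Red and blue points are called higher and lower in Brd and open circles are not called; glucocorticoid targets, with a median of 1.76, stand at the top and cholesterol synthesis genes, with a median of -0.806, at the bottom.

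The study holds a second pair of groups that differ by the prefix NM in their titles, control and NM-DMSO, and shares no library with the comparison above. The question is whether the differences between Brd and NM-Brdi are also found there. In 1 fit of all 8 libraries, 694 of the 728 genes at least 2-fold higher in Brd (95.3%) were also higher in control than in NM-DMSO, and 362 of the 397 lower genes (91.2%) were also lower; over all tested genes the sign was shared by 12751 of 16404 (77.7%). Median log2 fold changes of the 728 genes were 1.46 for Brd over NM-Brdi and 1.5 for control over NM-DMSO, and of the 397 genes -1.43 and -1.02. For these counts and medians, Brd over NM-Brdi was taken from the fit of 4 libraries and control over NM-DMSO from that of 8. Across 17038 genes the 2 differences, both from the fit of 8 libraries, had a Pearson correlation of 0.731 and a Spearman correlation of 0.68. This describes these genes and is no test.

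The difference between the 2 differences was called for 7 of 17038 genes (0.0411%), and 1580 (9.27%) had an unadjusted p under 0.05. Ibsp and Spp1 were not among the 7. Ibsp differed by 6.74 on the log2 scale in Brd over NM-Brdi and by 3.70 in control over NM-DMSO (edgeR adjusted p of the difference = 0.081), and Spp1 by -0.28 and 0.92 (edgeR adjusted p = 0.0827). Sgk1 differed by 4.43 and 4.07, Tsc22d3 by 3.91 and 3.46, and Fkbp5 by 2.71 and 2.96. Of the 7 genes, Ccn2 had 324 and 261 CPM in Brd, against 52.2 and 40.4 CPM in NM-Brdi, and 34.5 and 28.3 CPM in control, against 44.3 and 42.4 CPM in NM-DMSO. Lum had 13.5 and 18.8 CPM in Brd, against 169.9 and 227 CPM in NM-Brdi, and 575 and 556 CPM in control, against 674 and 594 CPM in NM-DMSO. For Ccn2, therefore, Brd stood apart from all 3 other groups. For Lum, Brd was lowest, and NM-Brdi also lay under control and NM-DMSO. The count of 7 depends on single libraries: without any 1 of the Brd, control or NM-Brdi libraries edgeR called 0 genes (933 to 1135 at an unadjusted p under 0.05), without NM-DMSO replicate 1 it called 1589 and without NM-DMSO replicate 2 it called 7458, all 7 among them each time, and DESeq2 on all 8 libraries called 248.

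**Figure D5:**
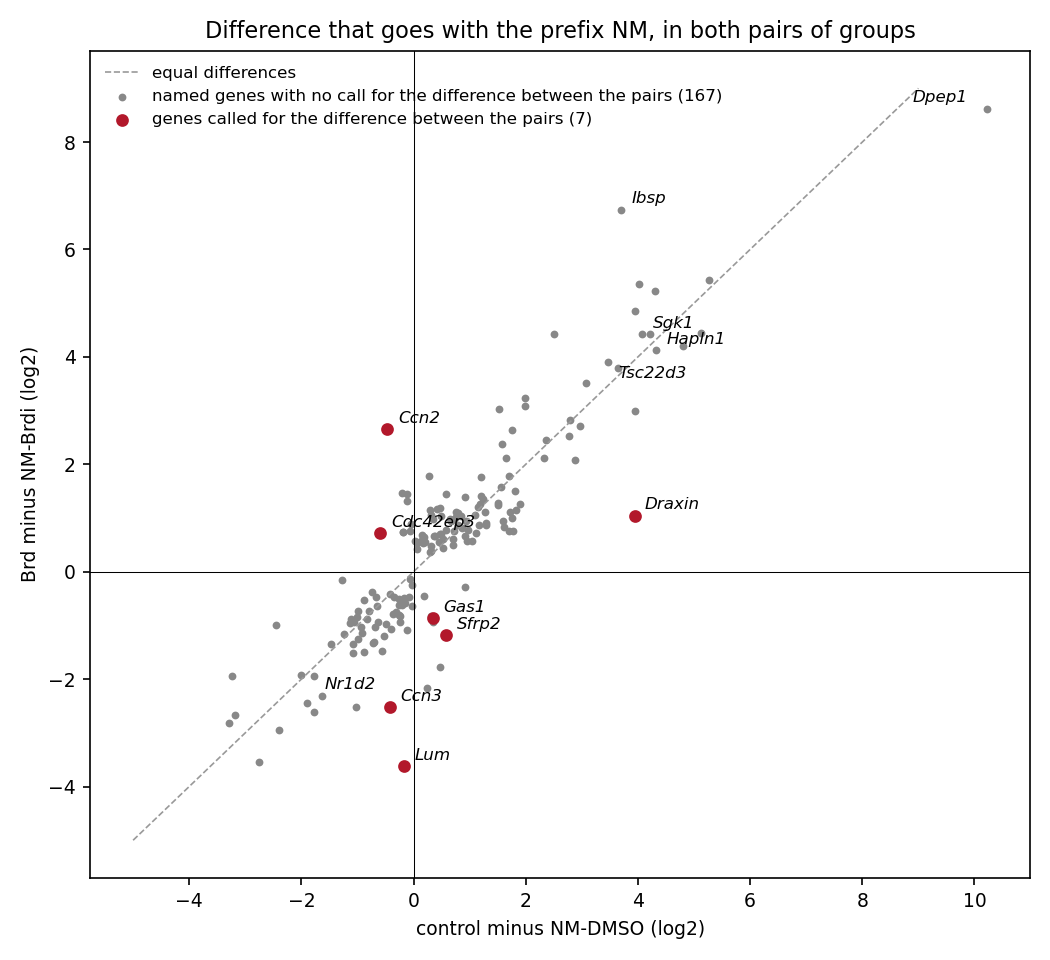
Log2 fold change of control over NM-DMSO (x axis) against that of Brd over NM-Brdi (y axis) in the fit of 8 libraries, for 167 named genes (grey) and the 7 genes called for the difference between the pairs (red); the dashed line marks equal differences. Most grey genes lie in the same quadrant near the line, while Ccn2 and Cdc42ep3 lie above it and Lum, Ccn3, Draxin, Sfrp2 and Gas1 below.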

How the data were processed

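MC3T3-E1 RNA was extracted with Trizol, per the labels' protocols. The authors deposited 1 table of read counts per gene for all 8 libraries; the tools listed in the submitters' processing notes are STAR 2.7.10a, featureCounts 2.0.3, Trimmomatic 0.39 and FastQC 0.11.9, and GRCm38 is among the builds. Points not given in the sources used here are the gene annotation's release, the use of strand in counting and the handling of multi-mapping reads. Library chemistry is unclear, since the labels name poly(A) enrichment and ribosomal depletion without saying which was used. Groups were read from titles.

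Counts of 4 libraries were tested with edgeR 4.0.16 in R 4.3.3 (quasi-likelihood test, TMM factors, filterByExpr, Benjamini-Hochberg adjustment over all tested genes); a called gene has an adjusted p under 0.05, and SE is the size of the log2 fold change divided by the square root of F. The difference between the pairs was an interaction term in a fit of 8 libraries. Alternatives were DESeq2 1.42.0, limma 3.58.1 (voom), other scaling factors, filters, thinning, a replicate block and each library left out. The test was run on simulated data for 16297 genes of this comparison and recovered 51 of 63 changed genes at 1.5-fold, 69 of 70 at 2-fold and 67 of 67 at 4-fold, with 12 false calls. The simulation gave all genes the same dispersion and changed only a small set with ample counts. These figures are therefore not the error rates of the comparison.

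The comparison and the gene lists were chosen with earlier results of these data known. Genes named were 12 of interest, the 12 higher and 12 lower called genes with the largest fold change at a mean of at least 10 CPM in the higher group and no overlap, the 6 each way with the largest difference in CPM, and up to 4 called members of each list with the largest fold change and at least 10 CPM; clone names and pseudogenes were left out, and other list members named were chosen after their values were seen. Symbols were matched to GENCODE M21 (GRCm38; 28003 of 28901, 96.9%). Genes whose transcripts share 200 nt or more at 95% identity (BLAST+ 2.17.0) or overlap in exons are given as uncertain where the partner has counts enough to matter. Only the 174 genes that the rule picks were searched in this way. Other genes named, among them Hmgcs1, Arntl, Nr1d1, Ccnb1 and Thbs1, were not searched, so a missing flag does not clear them. Promoter windows are RefSeq's for GRCm38.p6. Some genes that the rule picks are not reported here.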

Additional observations from a re-analysis of the deposited data

Results flagged for a closer look

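The difference of Brd over NM-Brdi departed from that of control over NM-DMSO for 7 genes, by the interaction test of edgeR on all 8 libraries. The interaction is the first difference minus the second on the log2 scale, n = 2 libraries a group, and the values are given without an explanation. Ccn2, a matricellular growth factor, had an interaction of 3.12 ± 0.24 (SE; edgeR adjusted p = 0.00793), and Ccn3 of the same family one of -2.11 ± 0.15 (SE; edgeR adjusted p = 0.00793). Ccn3 had 18.8 and 19.5 CPM in Brd, against 117 and 103 CPM in NM-Brdi, and 74.8 and 71.4 CPM in control, against 99.8 and 95.5 CPM in NM-DMSO. Lum, a proteoglycan of collagen fibrils, had an interaction of -3.45 ± 0.27 (SE; edgeR adjusted p = 0.00793).

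Of the Wnt antagonists, Sfrp2 had 117 and 121 CPM in Brd, against 277 and 260.0 CPM in NM-Brdi, and 264 and 248 CPM in control, against 164 and 178 CPM in NM-DMSO, so the pairs moved in opposite directions (interaction -1.76 ± 0.14, SE; edgeR adjusted p = 0.00793). Draxin was higher without the prefix in both pairs, with 18.4 and 19.5 CPM in Brd, against 9.69 and 8.70 CPM in NM-Brdi, and 39.6 and 35.9 CPM in control, against 2.98 and 1.96 CPM in NM-DMSO (interaction -2.89 ± 0.27, SE; edgeR adjusted p = 0.0213). Cdc42ep3, an effector of the GTPase CDC42, had 87.7 and 84.3 CPM in Brd, against 49.7 and 54.7 CPM in NM-Brdi, and 89.5 and 83.7 CPM in control, against 132 and 129 CPM in NM-DMSO (interaction 1.31 ± 0.14, SE; edgeR adjusted p = 0.0457). Gas1, a Hedgehog co-receptor, had 175 and 176 CPM in Brd, against 317 and 324 CPM in NM-Brdi, and 379.9 and 351 CPM in control, against 285 and 293 CPM in NM-DMSO (interaction -1.20 ± 0.13, SE; edgeR adjusted p = 0.0457). Ccn2, Sfrp2, Cdc42ep3 and Gas1 thus had opposite signs in the pairs.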

How the results depend on the processing

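No named gene that was called changed direction in an alternative; Bglap, which was not called, ranged from -0.44 to 0.18 on the log2 scale. Calls were split 3791 higher and 3424 lower, but 3006 and 4527 with upper-quartile factors and 3703 and 3774 with no filter on low counts. The count of 7215 genes called stayed within 1.5 times in every alternative except the fit of all 8 libraries, with 1789 genes (715 of them at least 2-fold), and the test against a 1.5-fold change (glmTreat), with 1097. DESeq2 called 4998 genes. Leaving out 1 library gave 5586 to 7092 genes called and 1007 to 1091 called at least 2-fold. The replicate numbers were not shown to pair the libraries: deviations of same-numbered libraries from their group means had a correlation of 0.0685. With the replicate number as a block 7882 genes were called, 1147 at least 2-fold, and 5 genes for the difference between the pairs. That difference had 7 calls, 248 with DESeq2 (1320 at an unadjusted p under 0.05), 608 with no filter on low counts (2849) and 0 to 7458 when 1 library was left out; a group with 1 library left is assumed to vary like the others, and the cause was not tested. Of 173 named genes that were called, 117 were called in every alternative run for them; the fit of 8 libraries lost 28, glmTreat 51, DESeq2 6, and leaving out 1 library 1 to 4. Low counts limit Bglap, Dmp1 and Mmp9, and the genes with both group means under 10 CPM include Lef1, Hes1, Itgb8, Nog, Il34 and Phex. The 2 libraries a group limit every comparison.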

Other observations

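The genes below fall outside the lists and were chosen after their values were seen. Of the tested genes, 16 had 0 counts in both NM-Brdi libraries, and all 16 were called higher in Brd by edgeR. A gene with 0 counts in a group passes the count filter only through the other group, so the direction of such calls was fixed in advance. Besides Zbtb16, Sash3, an adaptor protein of lymphocytes, had 124 and 135 counts in Brd, at least 131-fold higher against a floor of 3 counts over the NM-Brdi group. Hif3a, a hypoxia-inducible factor subunit, had 58 and 62 counts in Brd, at least 60.6-fold higher. The other way round, 2 tested genes had 0 counts in both Brd libraries and both were called lower; Chodl, a C-type lectin-like membrane protein, had 16 and 13 counts in NM-Brdi and was at least 6.38-fold lower in Brd.

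Secreted and signalling genes were found on both sides. Agt, angiotensinogen, had 55.9 and 51.7 CPM in Brd, against 3.06 and 4.77 CPM in NM-Brdi (log2 difference 3.78 ± 0.14, SE; edgeR adjusted p = 7.43e-11). Deptor, an inhibitor of the mTOR kinase, had 201 and 212 CPM in Brd, against 17.3 and 17.6 CPM in NM-Brdi, and Kitl, the ligand of the receptor KIT, 224 and 239 CPM in Brd, against 39.7 and 37.4 CPM in NM-Brdi. Nuak1, a kinase of the AMPK family, had 720.0 and 719.7 CPM in Brd, against 133 and 127 CPM in NM-Brdi, and Map1b, a microtubule-associated protein, 728 and 781 CPM in Brd, against 112 and 157 CPM in NM-Brdi. In all 5 genes every Brd library was more than 4 times every NM-Brdi library. Among genes that fell, the guidance ligand Slit2 had 22.9 and 25.5 CPM in Brd, against 73.8 and 101 CPM in NM-Brdi, and its receptor Robo2 a log2 fold change of -1.58 ± 0.12 (SE; edgeR adjusted p = 1.14e-07). Cd34, a sialomucin of progenitor cells, had 24.7 and 22.3 CPM in Brd, against 80.7 and 76.4 CPM in NM-Brdi, and Ahr, the aryl hydrocarbon receptor, 12.4 and 12.9 CPM in Brd, against 32.0 and 32.5 CPM in NM-Brdi. The genes of this paragraph were drawn from called genes whose groups did not overlap, so their lack of overlap is no result.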
